A study of Mus musculus with 6 samples.

Results

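The enzymes described here break glucose down to pyruvate and lactate, branch it into the pentose phosphate pathway, or store it as glycogen. They were chosen by gene symbol, as 32 named genes of glycolysis and its control by fructose 2,6-bisphosphate and pyruvate dehydrogenase kinase, of the pentose phosphate pathway and of glycogen turnover. All 32 were found among the 21829 genes of the deposited table, and all 32 had a mean of at least 1 FPKM (a level scaled by transcript length and library size), the limit for testing that 12539 genes passed. RNA came from the epididymal fat pad, a visceral white fat depot beside the testis, of 20-week-old male C57BL/6J mice kept on a normal diet. One group of 3 libraries (WT 1, WT 2, WT 3) is labelled wild type, from littermates, and the other group of 3 (KO 1, KO 2, KO 3) is labelled ZFP251 KO. The design asks what ZFP251, a zinc finger protein, does in this fat, and the series title ties its loss to glucose metabolism and enlarged fat cells. No allele, promoter or deleted exon is given in the labels, and nothing in them ties a library to 1 animal. The p-values below therefore weigh differences against the variation among these 6 libraries only, whatever its source.

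In fat cells, glucose that enters through the insulin-responsive carrier GLUT4 is phosphorylated by hexokinase and feeds several routes. Glycolysis supplies glycerol 3-phosphate for triglyceride and pyruvate for fatty acid synthesis, and much of the pyruvate leaves the cell as lactate. The oxidative branch of the pentose phosphate pathway supplies NADPH for fatty acid synthesis, and a small glycogen store buffers glucose.

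The libraries differed in ways that touch every value below. Zfp251 itself was measured first and was not lower in the libraries labelled KO, at 6.48, 5.86 and 6.48 FPKM in KO 1, KO 2 and KO 3. The WT libraries stood at 3.73, 3.56 and 2.95 FPKM (log2 difference 0.72, limma's adjusted p = 0.223). With no allele given, a value for the whole gene cannot settle whether the protein was lost. Directions are therefore those of the libraries labelled KO, written KO minus WT as a log2 difference of FPKM + 1. The FPKM of a library summed to between 426966 and 637902, the highest sum being that of WT 3. Adipocyte markers were abundant in every library, and the 12 markers together stood at 55694 to 98016 FPKM in WT and 40343 to 49255 FPKM in the libraries labelled KO. The 12 multiciliated cell markers gave 36.2 FPKM in WT 1, 1.16 in WT 2 and 1.24 in WT 3, beside 100.3, 101 and 46 FPKM for KO 1, KO 2 and KO 3, so transcripts of Foxj1, the master regulator of ciliated cells, and of the other markers were present in WT 1 and near 0 in the other two WT libraries. The 12 skeletal muscle markers summed to 117 FPKM in WT 3 and to between 11.1 and 28 FPKM in the other 5 libraries. The 7 erythroid markers summed to 3533 FPKM in WT 3, to 1826 and 1299.7 FPKM in WT 1 and WT 2 and to between 505 and 1372 FPKM in the libraries labelled KO, where all 5 tested were lower. The 10 macrophage markers, all lower there too, summed to between 1121 and 1587 FPKM in WT and between 984 and 1339.6 FPKM in the libraries labelled KO. In whole tissue RNA, fewer cells of a type and less RNA per cell cannot be told apart.

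No member passed limma's adjusted threshold of 0.05, and neither did any of the other tested genes (0 of 12539, a share of 0.0%). Values were lower in the libraries labelled KO for 24 of the 32 members and higher for 8, with a median log2 difference of -0.15. Across all tested genes 59.2% were lower, 40.8% were higher and the median was -0.05. Limma's unadjusted p was under 0.05 for 5 members, beside 13.6% of all tested genes, a similar share. Aldoc was higher, and Pfkp, Gys1, Pygl and G6pdx were lower. By direction, 1 of the 32 was higher beside 9.13% of all genes, and 4 were lower beside 4.43% of all genes. The 3 libraries of each group did not overlap for 5 members, beside 22.2% of all genes. The 2 higher were Aldoc and Hk1, beside 10.1% of all genes, and the 3 lower were Pfkp, Gys1 and Pygl, beside 12.2%. Without KO 2 only Aldoc kept an unadjusted p under 0.05 (7.03% of all genes), and with a ciliated-cell covariate 0 members did (1.32%). The median and the split rested on WT 3, without which 15 members were higher and 17 lower with a median of -0.01. Without WT 2, 6 were higher and the median was -0.31. After quantile normalization 13 were higher, 19 were lower and the median was -0.05.

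**Figure D1:**
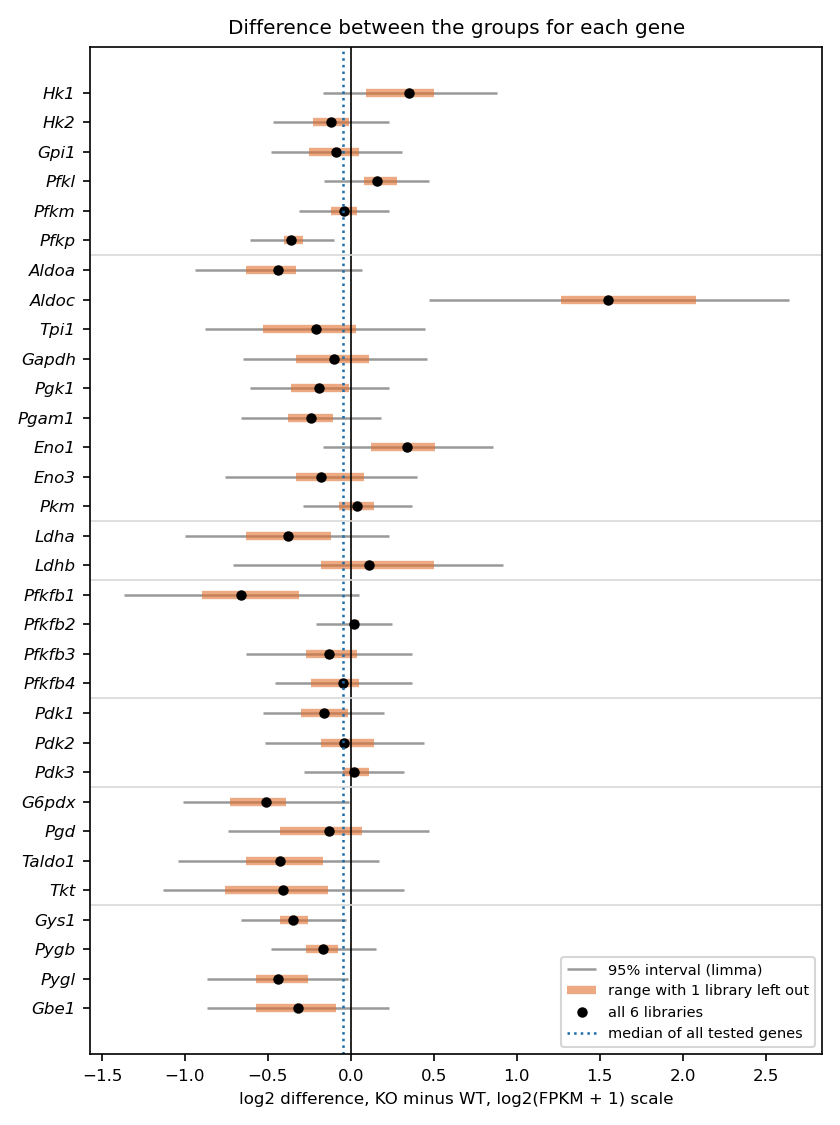
Log2 difference (KO minus WT, log2(FPKM + 1) scale, horizontal axis) of the 32 genes, with limma's 95% interval as a grey line, the range over fits that leave out 1 library as an orange bar, and the median of all 12539 tested genes as a dotted line. Aldoc lies at 1.55, and the other 31 lie between -0.66 and 0.35.

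The WT libraries set most of the spread. The SD of log2(FPKM + 1) was larger in WT than among the libraries labelled KO for 31 of the 32 members (96.9%), and for 76.1% of all tested genes. Pfkfb3 was the exception. Leaving out Aldoc, the highest WT library stood a median of 1.56-fold above the lowest WT library, against 1.12-fold among the libraries labelled KO. WT 3 was the highest of the 6 libraries for 24 members (40.3% of all genes) and WT 2 the lowest for 16 members (16% of all genes). In 15 members all 3 libraries labelled KO lay between WT 2 below and WT 3 above, which held for 8.53% of all genes. The rank of WT 3 depended on scaling. Taken as a share of all FPKM of a library, the 32 members together were highest in WT 1 (0.891%). On that scale WT 3 (0.809%) lay below KO 3 (0.823%), and WT 2 was still the lowest (0.68%).

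**Figure D2:**
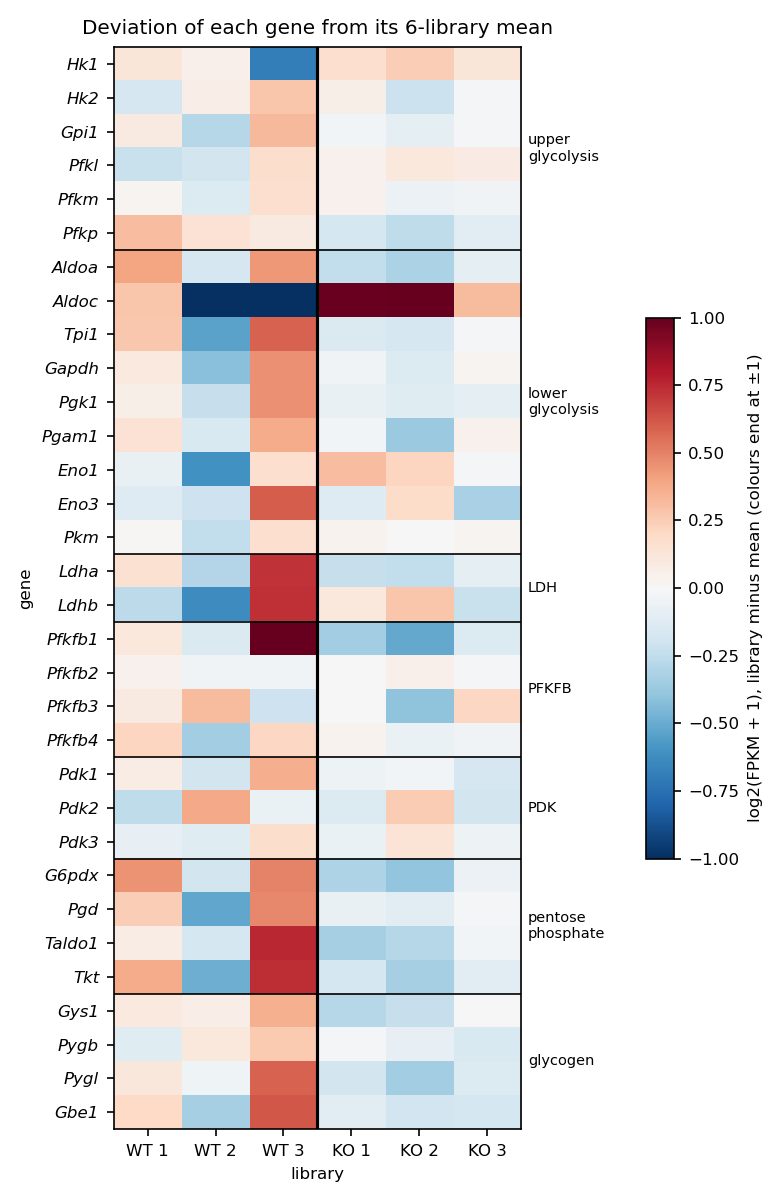
Heat map of log2(FPKM + 1) of each gene in each library minus its mean over the 6 libraries, with the genes in rows by role and the libraries in columns. WT 3 is above the mean for 27 of the 32 genes and WT 2 for 7, while the 3 libraries labelled KO differ little from each other.

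On the log2 scale, the median member lay 0.36 above its 6-library mean in WT 3, 0.18 below it in WT 2 (-0.18) and 0.09 above it in WT 1. In KO 1, KO 2 and KO 3 the medians were -0.06, -0.12 and -0.04. Across all tested genes the medians ran from -0.03 to 0.06. In WT 3 the 10 members with a transcript under 2000 nt, among them Gapdh, Ldha, Ldhb, Taldo1 and Aldoa, had a median of 0.59, and all tested genes of that length one of 0.35. The 6 members with a transcript of 4000 nt or more had a median of 0.02 in WT 3, and all tested genes of that length one of -0.13. After a correction for length and GC content the median of all members in WT 3 was 0.36, that of the short members 0.46 and that of all tested genes under 2000 nt 0.15. WT 3 was also the library with the highest summed adipocyte, muscle, erythroid and macrophage markers. Its summed endothelial markers were the lowest (167 FPKM against 300 to 451 FPKM elsewhere). Among the adipocyte markers Plin4 was highest in KO 1 and Lipe and Pnpla2 in WT 2, while the others were highest in WT 3. The part of these cell types in the high values of WT 3 was not tested.

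Many glycolytic genes are known targets of the hypoxia-inducible factors, whose binding sites hold the letters ACGTG, and of factors that bind the E-box CACGTG. The 250 bases before each RefSeq start site on GRCm38.p6 were searched on both strands, and all 32 members had at least 1 window. A gene was counted when any of its windows held the letters. The ACGTG core was found for 13 of 32 members (40.6%), against 18.5% of the 27025 genes with a RefSeq window, and CACGTG, which contains the core on each strand, for 5 (15.6%) against 6.9%. Per window, 16.6% of all 32851 windows held the core and 6% the E-box. The windows were not matched for base composition, nor the genes for their number of windows. Several members, such as Pfkm and Pfkfb1, had more than 1 window and so more chances of a match. No share per window was taken for the members alone. The 13 members with the core had a median log2 difference of -0.13 and the 19 without it one of -0.16. Windows of 4 members are shown 5′ to 3′ on the gene's strand, with core letters on either strand in capitals. They are those of Ldha (3 sites, of which 2 are CACGTG and match on both strands, giving 5 matches, chr7:46845554-46845803, plus strand) and Pgk1 (chrX:106186850-106187099, plus strand), which hold more than 1 site, and of a pair of members whose groups did not overlap, one with the core and one without it, Pygl (chr12:70227684-70227933, minus strand) and Pfkp (chr13:6648772-6649021, minus strand).
Ldha: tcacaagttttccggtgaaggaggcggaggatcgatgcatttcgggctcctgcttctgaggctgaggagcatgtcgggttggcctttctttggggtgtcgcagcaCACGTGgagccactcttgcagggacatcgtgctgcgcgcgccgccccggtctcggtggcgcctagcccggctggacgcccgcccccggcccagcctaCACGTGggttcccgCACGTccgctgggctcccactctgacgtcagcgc
Pgk1: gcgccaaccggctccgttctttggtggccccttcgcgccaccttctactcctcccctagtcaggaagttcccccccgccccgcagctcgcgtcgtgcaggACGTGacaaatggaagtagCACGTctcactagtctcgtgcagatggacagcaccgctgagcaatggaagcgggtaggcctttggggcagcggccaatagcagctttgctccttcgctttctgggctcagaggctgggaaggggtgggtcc
Pygl: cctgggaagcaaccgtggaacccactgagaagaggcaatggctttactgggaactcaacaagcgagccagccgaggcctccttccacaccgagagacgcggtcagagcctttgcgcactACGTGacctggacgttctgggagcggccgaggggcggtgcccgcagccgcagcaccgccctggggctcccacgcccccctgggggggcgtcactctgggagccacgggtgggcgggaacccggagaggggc
Pfkp: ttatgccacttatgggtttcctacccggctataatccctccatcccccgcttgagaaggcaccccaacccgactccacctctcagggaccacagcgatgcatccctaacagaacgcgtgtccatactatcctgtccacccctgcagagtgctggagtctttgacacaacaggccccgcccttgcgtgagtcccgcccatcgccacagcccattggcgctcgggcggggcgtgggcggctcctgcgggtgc
The matches of Ldha lie within 145 bases of the start, those of Pgk1 at 150 and 131 bases and that of Pygl at 131 bases, while Pfkp has none in this window. The starts used for Ldha and Pygl lie inside the GENCODE spans of these genes, and a second Ldha window (chr7:46846832-46847081) held no match. A match describes the letters and not a bound site.

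The first steps of glycolysis trap glucose and commit it, and 4 of these 6 members were lower and 2 higher in the libraries labelled KO. Hexokinase, which phosphorylates glucose, is encoded here by Hk1, the housekeeping form, and Hk2, the insulin-regulated form of muscle and fat. Hk2 was the more abundant, at 23.6, 28 and 32.4 FPKM across WT 1, WT 2 and WT 3 and at 27.8, 22.8 and 26.2 FPKM in KO 1, KO 2 and KO 3, with overlapping groups (log2 difference -0.12). Hk1 stood at 9.45, 8.95 and 4.95 FPKM in WT and at 9.81, 10.4 and 9.45 FPKM in the libraries labelled KO. The groups were apart only beyond the digits shown, since WT 1 and KO 3 both round to 9.45 FPKM, and WT 3 stood lowest. On the log2 scale the difference was 0.35 (standard error 0.22, limma's adjusted p = 0.515), and 0.09 without WT 3. Hk2 made up 78% ± 7.89 (SD, n = 3) of the summed Hk1 and Hk2 FPKM in WT and 72% ± 2.95 (SD, n = 3) in the libraries labelled KO. Gpi1, which turns glucose 6-phosphate into fructose 6-phosphate, had 86.4 ± 17.9 FPKM (SD, n = 3) in WT against 80.2 ± 2.53 FPKM, a log2 difference of -0.09 that was 0.05 without WT 3 and 0.13 after quantile normalization.

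Phosphofructokinase, the committed step of glycolysis, has 3 isozymes, of which Pfkp had lower values in the libraries labelled KO. Pfkp, the platelet form, whose window holds no match to that core, stood at 21.3, 18.9 and 18.2 FPKM across WT 1, WT 2 and WT 3 and at 15, 14.1 and 15.7 FPKM in KO 1, KO 2 and KO 3. All 3 libraries labelled KO were below all 3 WT libraries. The gene lies at chr13:6579768-6648777 (GRCm38, minus strand). The log2 difference was -0.36 (standard error 0.11, limma's unadjusted p = 0.0125, adjusted p = 0.227), and it lay between -0.40 and -0.29 with any 1 library left out. Pfkl, the liver form and the most abundant of the 3, had 23.5, 24.1 and 31.3 FPKM in WT and 28.4, 29.8 and 29.3 FPKM in the libraries labelled KO. WT 1 and WT 2 were below all libraries labelled KO, and WT 3 was above them. Its log2 difference was 0.16 (standard error 0.13, limma's adjusted p = 0.62). It was 0.28 without WT 3 and 0.01 after the length and GC correction. Pfkm, the muscle form, had 8.98 ± 1.04 FPKM (SD, n = 3) in WT and 8.69 ± 0.358 FPKM (SD, n = 3) among those labelled KO, a log2 difference of -0.04 (0.04 without WT 3 and 0.01 with median-ratio scaling).

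A share within a library does not depend on how the library was scaled. The shares were not corrected for transcript length or GC content. Pfkp made up 39.7%, 37.1% and 30.5% of the summed phosphofructokinase FPKM in WT 1, WT 2 and WT 3, and 28.6%, 27% and 29.3% in KO 1, KO 2 and KO 3. Pfkl made up 43.6%, 47.3% and 52.7% in WT and 54.1%, 56.9% and 54.7% in the libraries labelled KO. The shares of the groups did not overlap for either isozyme. Since Pfkm took a nearly even share of every library, from 15.6% to 17.3%, the shares of Pfkl and Pfkp mirror each other and are 1 observation, in which WT 3 lay nearest to the libraries labelled KO. The difference was -7.44 percentage points for Pfkp and 7.36 for Pfkl. An exact permutation test, two-sided, gave p = 0.1 for each, the smallest that 3 libraries against 3 allow, and 0.5 after Benjamini-Hochberg adjustment over the 15 isozyme shares compared. Of the 15 shares, 3 did not overlap between the groups, a proportion near the 22.2% of all tested genes.

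**Figure D3:**
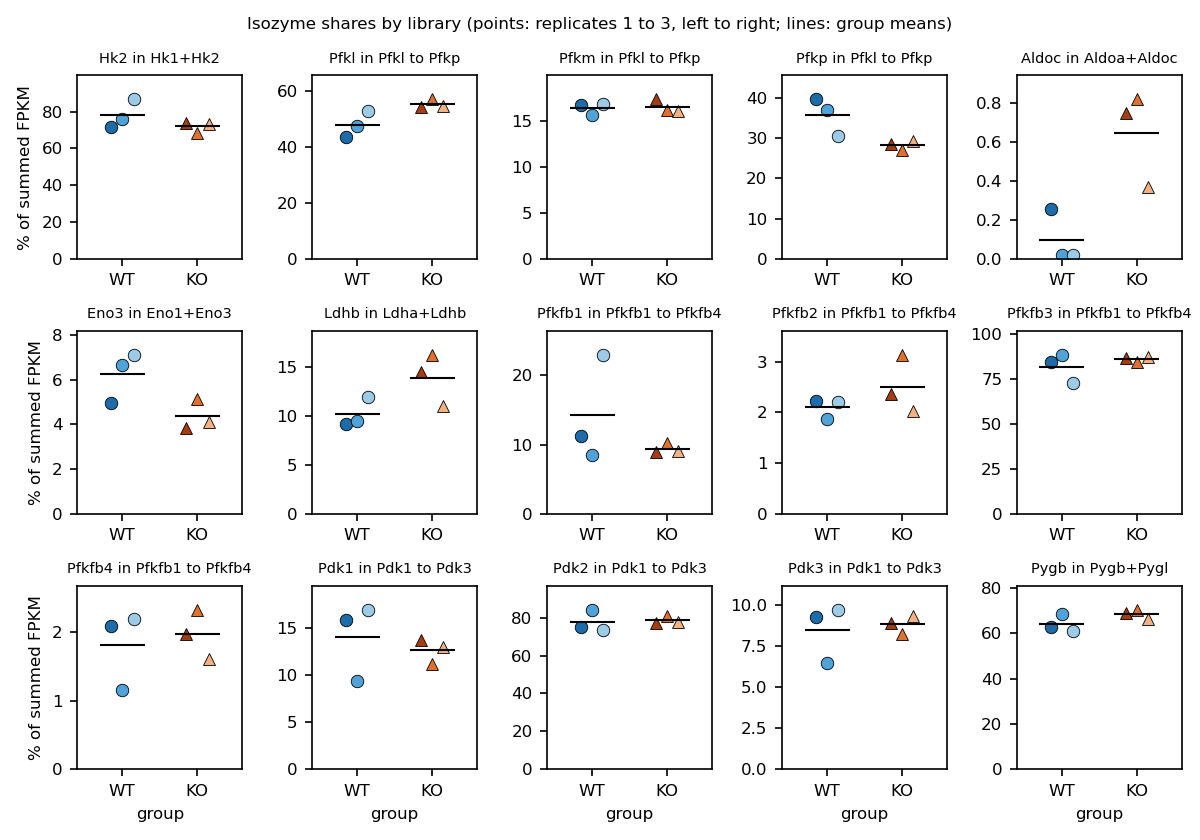
Share of each isozyme in the summed FPKM of its isozymes, as a percentage (vertical axes, each from 0), in the 3 WT libraries (circles) and the 3 libraries labelled KO (triangles), with group means as lines. The groups are apart for Pfkl, Pfkp and Aldoc and overlap for the other 12 shares, and they were apart for 22.2% of all tested genes.

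Aldolase splits fructose 1,6-bisphosphate. Aldoa, the muscle and general form, had the highest level per length of all 32 members, at 963, 653 and 991 FPKM across WT 1, WT 2 and WT 3 and at 619, 588 and 691 FPKM in KO 1, KO 2 and KO 3. KO 3 lay above WT 2, so the groups overlapped. Its log2 difference was -0.44 (standard error 0.21, limma's adjusted p = 0.426), from -0.63 to -0.33 with any 1 library left out. The table lists Aldoa under a second identifier (ENSMUSG00000114515) at between 0.359 and 1.247 FPKM, and that row was left out.

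Aldoc, the brain form of aldolase (chr11:78322968-78327781, GRCm38, plus strand), had the largest difference of any member. It stood at 2.46, 0.134 and 0.185 FPKM across WT 1, WT 2 and WT 3 and at 4.66, 4.84 and 2.56 FPKM in KO 1, KO 2 and KO 3. The groups were apart by the small gap between WT 1 and KO 3. On the log2 scale the difference was 1.55 (standard error 0.46, limma's unadjusted p = 0.012, adjusted p = 0.225). With a pseudocount of 0.1 in place of 1 it was 2.84, with sample weights 0.84 and after quantile normalization 1.08. Without WT 1 it was 2.08 and passed the threshold (limma's adjusted p = 0.0145), where 3.84% of all tested genes did. Set against the KO mean of Aldoc, WT 1 held 61.3%, WT 2 held 3.33% and WT 3 held 4.6%. Foxj1, of ciliated cells, reached 38.8% of its own KO mean in WT 1 and 0.0949% in WT 2 and was listed at 0 in WT 3, and Epcam, of epithelia, reached 52.4%, 0.732% and 0.703%. With the mean of the multiciliated markers as a covariate, the Aldoc difference was -0.19 (limma's adjusted p = 1), and that covariate is partly confounded with the groups. Aldoc made up at most 0.817% of the summed Aldoa and Aldoc FPKM in any library.

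**Figure D4:**
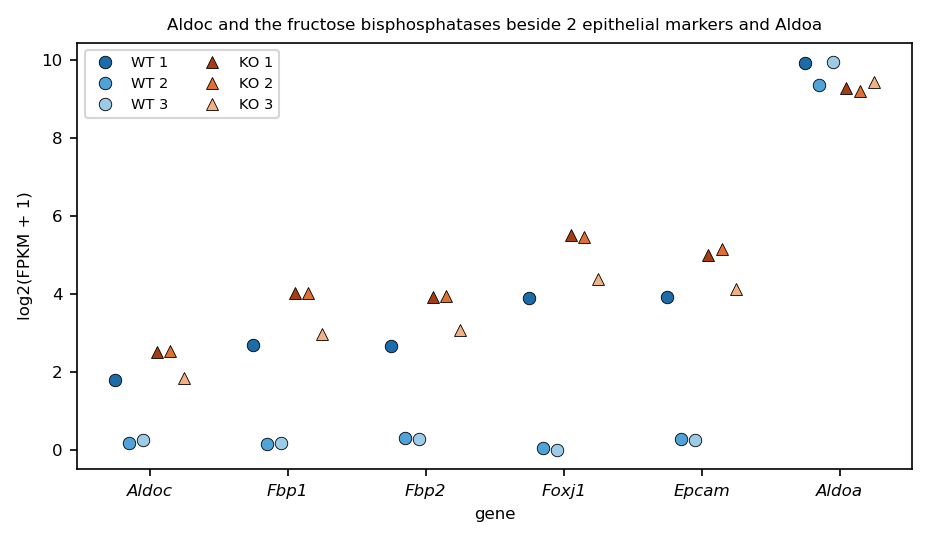
Levels as log2(FPKM + 1) (vertical axis) of Aldoc, Fbp1 and Fbp2 in each library, beside the ciliated cell gene Foxj1, the epithelial gene Epcam and the abundant aldolase Aldoa. In the first 5 genes WT 2 and WT 3 lie near 0 and WT 1 lies with KO 3, below KO 1 and KO 2.

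From aldolase to pyruvate kinase 6 of 9 members were lower and 3 higher, and WT 3 was the highest library for 7 of them and WT 2 the lowest for 6. Tpi1, triose phosphate isomerase, had 229, 131 and 286 FPKM in WT and 172, 169 and 188 FPKM in the libraries labelled KO. Gapdh, the first oxidation of the pathway and a common reference gene, had 415, 289.7 and 531 FPKM in WT and 377, 352 and 395 FPKM in the libraries labelled KO. Pgk1, which makes the first ATP, had 36.7, 29.8 and 48.7 FPKM in WT and 33.3, 32.2 and 33 FPKM in the libraries labelled KO. In these 3 genes WT 2 was the lowest library, WT 3 the highest, and the libraries labelled KO lay close together between them. The log2 differences were -0.21 for Tpi1, -0.10 for Gapdh and -0.19 for Pgk1, with standard errors of 0.28, 0.23 and 0.18. Without WT 3 they were 0.03, 0.11 and -0.01, and after quantile normalization those of Tpi1 and Gapdh were 0.05 and 0.18. Pgam1, a phosphoglycerate mutase, had 39 ± 7.13 FPKM (SD, n = 3) in WT against 32.7 ± 4.91 FPKM (log2 difference -0.24).

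Enolase makes phosphoenolpyruvate, and its general and muscle forms had differences of opposite sign. Eno1, the general form, stood at 166, 114 and 196 FPKM across WT 1, WT 2 and WT 3 and at 216, 203 and 173 FPKM in KO 1, KO 2 and KO 3. KO 1 and KO 2 exceeded every WT library, and KO 3 lay between WT 1 and WT 3. Its log2 difference was 0.34 (standard error 0.22, limma's adjusted p = 0.52), from 0.12 without WT 2 to 0.51 without WT 3. Eno3, the muscle form, had 8.66, 8.13 and 15 FPKM in WT and 8.66, 11 and 7.4 FPKM in the libraries labelled KO. WT 3, its highest library, also held skeletal muscle transcripts, with the creatine kinase Ckm at 10.3 FPKM against at most 0.156 FPKM in the other 5 libraries and the fast myosin Myh4 at 6.3 FPKM against a listed 0 in the other 5. Their part in the Eno3 value was not tested. The Eno3 difference was -0.18, and 0.08 without WT 3. Pkm, pyruvate kinase, differed least in the lower pathway, with 128, 107 and 143 FPKM in WT and 129.9, 127 and 129 FPKM in the libraries labelled KO (log2 difference 0.04, 95% interval -0.29 to 0.37, and -0.07 without WT 2).

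Lactate dehydrogenase interconverts pyruvate and lactate through the muscle-type subunit Ldha and the heart-type subunit Ldhb. Ldha, whose window shown holds the ACGTG core, stood at 471, 346 and 699.7 FPKM across WT 1, WT 2 and WT 3 and at 361, 357 and 397 FPKM in KO 1, KO 2 and KO 3. The libraries labelled KO lay just above WT 2 and below WT 1 and WT 3. The log2 difference was -0.38 (standard error 0.26, limma's adjusted p = 0.542), and -0.12 without WT 3. Ldhb had 47.4, 36.5 and 95.6 FPKM in WT and 61.4, 69.3 and 48.9 FPKM in the libraries labelled KO, a log2 difference of 0.11 that ran from -0.18 without WT 2 to 0.50 without WT 3. Ldhb made up 9.15%, 9.53% and 12% of the summed subunit FPKM in WT and 14.5%, 16.3% and 11% in the libraries labelled KO. KO 3 lay between WT 2 and WT 3 in that share, and KO 1 and KO 2 were above all WT libraries (exact permutation p = 0.2, adjusted 0.5).

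The bifunctional enzymes of the PFKFB family make and remove fructose 2,6-bisphosphate, the strongest activator of phosphofructokinase. Pfkfb3, the inducible form with high kinase activity, was the most abundant at 247, 289 and 201 FPKM across WT 1, WT 2 and WT 3 and at 232, 176 and 269 FPKM in KO 1, KO 2 and KO 3. The groups overlapped fully, and the log2 difference was -0.13, or 0.04 without KO 2 and 0.13 after quantile normalization. Pfkfb1, the liver and muscle form, had 33.1, 27.6 and 63.6 FPKM in WT and 23.9, 21.2 and 27.8 FPKM in the libraries labelled KO. KO 3 lay just above WT 2, and WT 3 stood far above the rest. Its log2 difference of -0.66, the most negative of the 32 members, had a standard error of 0.30 (limma's adjusted p = 0.396) and was -0.31 without WT 3. Pfkfb2, the heart form, stayed between 6.12 and 6.55 FPKM in all 6 libraries (log2 difference 0.02, 95% interval -0.21 to 0.25, and -0.05 after quantile normalization). Pfkfb4 ran from 3.8 FPKM in WT 2 to 6.11 FPKM in WT 1, with the libraries labelled KO between 4.84 and 5.26 FPKM. Its log2 difference was -0.05, and 0.05 without WT 1 and 0.04 without WT 3. Pfkfb3 made up between 72.6% and 88.5% of the summed family in every library.

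Pyruvate dehydrogenase kinases switch off the mitochondrial complex that converts pyruvate to acetyl-CoA. Pdk2 was the most abundant of the 3 kinases tested here, at 52.2, 81.4 and 59.6 FPKM across WT 1, WT 2 and WT 3 and at 56.7, 74.6 and 54.8 FPKM in KO 1, KO 2 and KO 3. WT 2 and KO 2 were the high libraries, and the groups overlapped. On the log2 scale the difference was -0.04 (95% interval -0.52 to 0.44), positive at 0.14 without WT 2, 0.02 without KO 1, 0.04 without KO 3, 0.01 with median-ratio scaling and 0.13 after quantile normalization. Pdk1, a kinase induced by low oxygen, had 11.2 ± 2.33 FPKM (SD, n = 3) in WT and 9.81 ± 0.579 FPKM in the libraries labelled KO (log2 difference -0.16). Pdk3 had 6.85 ± 0.89 FPKM (SD, n = 3) against 6.92 ± 0.627 FPKM (log2 difference 0.02, and -0.02 without WT 1, -0.04 without WT 2, -0.05 without KO 2 and -0.03 after quantile normalization). Pdk4, the fasting-induced kinase, is outside the 32 genes, and like Pdk2 it was highest in WT 2 and KO 2, at 45 and 24.8 FPKM against 14.2 to 15.9 FPKM in the other 4 libraries.

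All 4 pentose phosphate enzymes had lower means in the libraries labelled KO, although Pgd was higher without WT 3 (log2 difference 0.07) and after quantile normalization (0.14). G6pdx, the rate-limiting enzyme that makes the first NADPH, stood at 125, 80.3 and 129 FPKM across WT 1, WT 2 and WT 3 and at 73.3, 69.2 and 87.6 FPKM in KO 1, KO 2 and KO 3. KO 1 and KO 2 were below every WT library, and KO 3 lay above WT 2. The gene lies at chrX:74409483-74429194 (GRCm38, minus strand). The log2 difference was -0.51 (standard error 0.21, limma's unadjusted p = 0.0451, adjusted p = 0.355). Pgd, the second NADPH source, had 176, 103 and 207 FPKM in WT and 141, 137 and 146 FPKM in the libraries labelled KO, all of them between WT 2 and WT 1. Among the non-oxidative enzymes, Taldo1, transaldolase, had 319, 268 and 511 FPKM in WT and 240.3, 248 and 297 FPKM in the libraries labelled KO. Tkt, transketolase, had 293, 161 and 378 FPKM in WT and 201, 180.1 and 209.6 FPKM in the libraries labelled KO. Their log2 differences of -0.43 and -0.41 had standard errors of 0.25 and 0.30, and without WT 3 they were -0.17 and -0.14. The adipocyte, erythroid and macrophage markers were lower in the libraries labelled KO as well, for 11 of 12, 5 of 5 and 10 of 10 tested genes, and their part in the lower values of the pentose phosphate and glycogen genes was not tested. Summed, the 4 genes stood at 917 ± 307 FPKM (SD, n = 3) in WT and 677 ± 55.7 FPKM (SD, n = 3) among those labelled KO, with WT 2 lowest at 612 FPKM.

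All 4 glycogen enzymes also had lower means in the libraries labelled KO, Pygb turning positive after quantile normalization (0.06). The lower level depended on scaling. Taken as a share of all FPKM of a library, the 4 genes together held 0.0528%, 0.0533% and 0.0512% for WT. The libraries labelled KO held 0.053%, 0.0504% and 0.0515%, so the groups overlapped. Single glycogen genes were not compared as such shares. Gys1, the glycogen synthase of muscle and fat, stood at 56, 54.9 and 67.1 FPKM across WT 1, WT 2 and WT 3 and at 42.8, 44.4 and 52.1 FPKM in KO 1, KO 2 and KO 3. Every library labelled KO was below every WT library. The gene lies at chr7:45434844-45456619 (GRCm38, plus strand). On the log2 scale the difference was -0.35 (standard error 0.13, limma's unadjusted p = 0.0347, adjusted p = 0.321), from -0.43 to -0.26 with any 1 library left out. Pygl, the liver-type glycogen phosphorylase, whose window holds 1 match, had 60.9, 54.7 and 85.4 FPKM in WT and 49.5, 44.1 and 51 FPKM in the libraries labelled KO, again without overlap. The gene lies at chr12:70190811-70231488 (GRCm38, minus strand). Its log2 difference was -0.44 (standard error 0.18, limma's unadjusted p = 0.0438, adjusted p = 0.35), and -0.26 without WT 3. Pygb, the brain-type phosphorylase and the more abundant of these, had 119 ± 15.6 FPKM (SD, n = 3) in WT and 105 ± 4.92 FPKM (SD, n = 3) among those labelled KO (log2 difference -0.17). Gbe1, the branching enzyme, had 30, 20.4 and 40.5 FPKM in WT and 23.9, 22.6 and 22.9 FPKM in the libraries labelled KO, which lay between WT 2 and WT 1 (log2 difference -0.32, and -0.09 without WT 3).

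**Figure D5:**
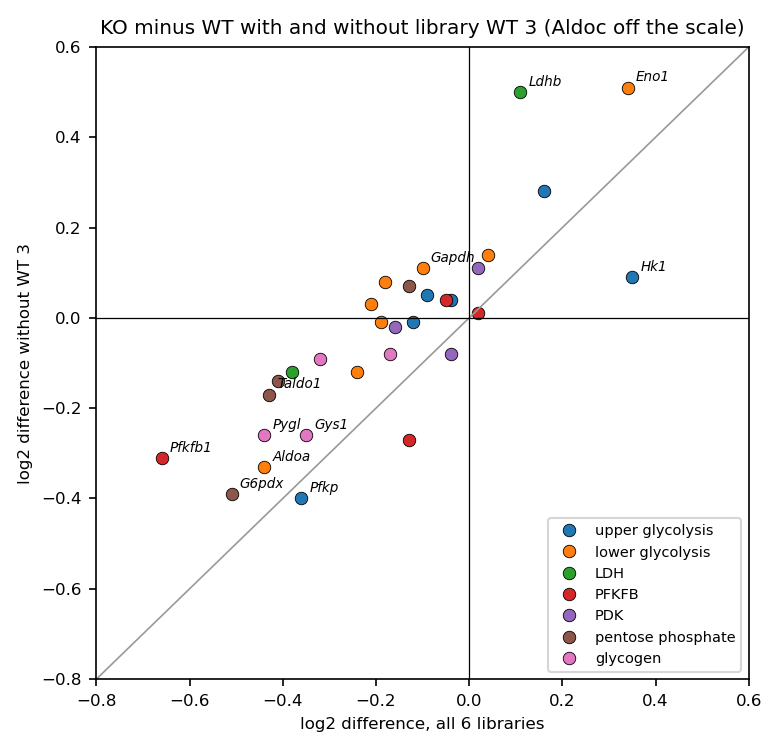
Log2 difference (KO minus WT) of 31 genes with all 6 libraries (horizontal axis) and without WT 3 (vertical axis), coloured by role, with equality as a diagonal line. Most points lie above the diagonal, and without WT 3 the lowest are Pfkp at -0.40, G6pdx at -0.39, Aldoa at -0.33 and Pfkfb1 at -0.31. Aldoc is off the scale.

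When libraries were weighted by how well they fitted the rest, 5 members passed limma's adjusted threshold, where 7.74% of all tested genes did. Pfkp had a log2 difference of -0.47 (adjusted p = 0.0367), G6pdx -0.69 (0.0407), Aldoa -0.58 (0.0451) and Gys1 -0.33 (0.0489). Pfkl was higher, at 0.27 (adjusted p = 0.0498). The weights ran from 4.02 for WT 1 to 0.142 for WT 3, so the WT side of these values rests mainly on WT 1.

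Other genes of these pathways, from lists chosen with earlier results of these data known, were counted in the same fit. Of 20 tested further genes of glycolysis and pyruvate handling 7 were higher and 13 lower in the libraries labelled KO, with 0 past limma's adjusted threshold and 5 at an unadjusted p under 0.05, beside 13.6% of all tested genes. The 4 with the smallest p were the gluconeogenic fructose bisphosphatases Fbp1 and Fbp2, the enolase-like gene Eno4, and Pklr, the pyruvate kinase of liver and red cells. Fbp1 had 5.49, 0.107 and 0.117 FPKM in WT and 15.2, 15.2 and 6.79 FPKM in the libraries labelled KO. Pklr had 4.86 FPKM in WT 1 and was listed at 0 in WT 2 and WT 3, beside 8.7, 8.86 and 4.32 FPKM in the libraries labelled KO, so WT 1 lay above KO 3. Limma's adjusted p for these 4 genes was between 0.223 and 0.252. WT 1 held 44.2% of the KO mean of Fbp1 and 47.6% of that of the epithelial transcription factor Pax8, while WT 2 and WT 3 held at most 0.942% of each. Not all of the 10 tubule epithelium markers followed that order. Aqp1 stood at 295, 352 and 113 FPKM in WT and at 379, 474 and 239 FPKM in the libraries labelled KO. Esr1 stood at 22.5, 13.6 and 15.3 FPKM in WT and at 30.8, 30.3 and 21 FPKM in the libraries labelled KO. The part of epithelial RNA in these differences was not tested.

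Of 22 tested further glycogen genes 15 were lower and 7 higher, with 0 past limma's adjusted threshold and 4 at an unadjusted p under 0.05, all lower, beside 4.43% of all tested genes. In direction alone, 59.2% of all tested genes were lower. Pgm1, named as a phosphoglucomutase, was matched by symbol only, and which phosphoglucomutase that symbol stands for here was not checked. Its WT values of 95.7, 94.3 and 142 FPKM all lay above 78, 79.5 and 83.3 FPKM for the libraries labelled KO (log2 difference -0.43). Ugp2, which makes UDP-glucose, had 59.3, 48.5 and 73.8 FPKM against 46.7, 44.8 and 44.1 FPKM (log2 difference -0.39). Phka2, a regulatory subunit of phosphorylase kinase, had a log2 difference of -0.47 and Gyg, the glycogenin primer, one of -0.40. Limma's adjusted p for these 4 genes lay between 0.236 and 0.366. Pygm, the muscle phosphorylase, had 2.76 ± 0.719 FPKM (SD, n = 3) in WT and 2.7 ± 0.0929 FPKM (SD, n = 3) among those labelled KO (log2 difference -0.01, and 0.12 at the highest with a library left out). Of the 8 further pentose phosphate genes tested, 6 were lower and 2 higher, beside the same 59.2% lower. At an unadjusted p under 0.05 in limma 1 was higher (9.13% of all tested genes) and 1 lower (4.43%). The phosphoribosyl pyrophosphate synthetase Prps1 (-0.63), the lactonase Pgls (-0.44) and the epimerase Rpe (-0.38) were lower, and Prps2 was higher (0.90). Each had a limma adjusted p of at least 0.223.

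Of 10 tested carriers of glucose and lactate, 5 were higher and 5 lower, with 4 at an unadjusted p under 0.05 in limma, all higher, beside 9.13% of all tested genes. Slc2a4, the insulin-responsive glucose carrier GLUT4, stood at 141, 99.8 and 160.4 FPKM across WT 1, WT 2 and WT 3 and at 108, 105 and 104 FPKM in KO 1, KO 2 and KO 3, a log2 difference of -0.31 with the libraries labelled KO between WT 2 and WT 1. Slc2a1, the basal carrier GLUT1, had 7.72, 8.54 and 5.53 FPKM in WT and 11.4, 9.98 and 8.8 FPKM in the libraries labelled KO, without overlap (log2 difference 0.43, limma's adjusted p = 0.34). The lactate exporter Slc16a3 (log2 difference 0.95), the monocarboxylate carrier Slc16a11 (1.61) and the glucose 6-phosphate carrier Slc37a4 (0.76) had higher values as well. Limma's adjusted p for these 3 lay between 0.223 and 0.286. In each of these 3, KO 1 and KO 2 were the highest libraries and KO 3 came next. Slc16a11 stood at 5.08, 1.91 and 1.67 FPKM in WT and at 13.2, 12.2 and 6.18 FPKM in the libraries labelled KO. The part of epithelial RNA in these carrier values was not tested. Of the 14 glucose and oxygen sensing regulators, 8 were higher and 6 lower, beside 59.2% lower among all tested genes. An unadjusted p under 0.05 in limma was found for 0 of them, beside 13.6% of all tested genes. Mlxipl, the glucose-responsive factor ChREBP, had 57.9, 49.3 and 100.1 FPKM in WT and 54.5, 54.9 and 40.4 FPKM in the libraries labelled KO (-0.41, and -0.11 at the nearest to 0 with a library left out). Txnip, its glucose-induced target, had a log2 difference of -0.24 and Hif1a, the oxygen-sensing factor, one of 0.08.

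Oxygen-responsive genes outside glycolysis numbered 17 tested, of which 10 were higher and 7 lower in the libraries labelled KO, with 5 at an unadjusted p under 0.05 in limma beside 13.6% of all tested genes. One of the 5 is Slc2a1, already counted among the carriers. Vegfa, the vascular growth factor, stood at 151, 111 and 137 FPKM across WT 1, WT 2 and WT 3 and at 86.1, 92.3 and 87 FPKM in KO 1, KO 2 and KO 3. Ndrg1, a stress-induced gene, had 47.1, 48.8 and 29.8 FPKM in WT and 85.4, 86.4 and 55.6 FPKM in the libraries labelled KO. Neither gene's groups overlapped, and the log2 differences were -0.57 and 0.85 (limma's adjusted p = 0.223 and 0.225). Mxi1, a MYC antagonist, had a log2 difference of 0.36. Ankrd37 had one of 1.21, from at most 1.12 FPKM in WT to between 1.72 and 5.38 FPKM.

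Reads of some members may be shared with near-identical copies. Only pseudogenes named as the gene symbol followed by -ps were counted in GENCODE vM21. It holds 2 so named for each of Aldoa, Gapdh, Ldha, Pgam1 and Pgk1. Copies under other names were not counted for any member. How the authors counted such reads is not given in the sources used here. Levels of these 5 genes, and of any member with copies under other names, are uncertain to an extent not measured here.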

How the data were processed

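Messenger RNA libraries from 6 fat samples, 3 per group, were made with a stranded kit, per the labels' protocols. STAR 2.5.4, Cufflinks and Cuffdiff 2.2.1 with build mm10 are named in the submitters' processing notes. The authors deposited 1 value per gene and library, read here as FPKM from those tools and from the values, because no header names the unit. The annotation, the filters and any library scaling by the authors: not given in the sources used here. The table has 21853 rows, and for the 24 that repeat another symbol the higher mean was taken. Values of genes averaging 1 FPKM or more were put on the log2(FPKM + 1) scale and fitted with limma 3.58.1 (R 4.3.3), comparing the groups with no covariate and a trended variance, two-sided, with Benjamini-Hochberg adjustment over all 12539 genes. Fold changes on this scale understate the change of low genes. Isozyme shares were compared with exact permutation tests. The fit was tested on simulated data. Lengths and GC content are those of the longest protein-coding transcript of GENCODE vM21. The files give no read totals, so depth is unknown and no interval for counting error can be had. Steps between low FPKM values give a rough relative depth, and only if the authors applied no further library scaling. On that basis WT 2, KO 1, KO 2 and KO 3 would have 0.79, 0.824, 0.651 and 0.946 times the depth of WT 1. Those steps were shared by 15% to 21.9% of low genes, and for WT 3 no step held more than 10.9%. The 32 members and all lists were chosen with earlier results of these data known. One further gene is not reported here and was left out of its list. Named genes were the members, Zfp251, up to 4 genes with the smallest p of each further list, 7 fixed genes, and cell type markers that moved with a member. Alternatives were a pseudocount of 0.1, no filter, a filter at 5 FPKM, scaling by median ratios, quantile normalization, sample weights, a length and GC correction, a ciliated-cell covariate, each library left out, and the replicate number as a block.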

Additional observations from a re-analysis of the deposited data

How the results depend on the processing

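No member passed the adjusted threshold except 5 with sample weights and Aldoc without WT 1. Genes past that threshold numbered 970 with sample weights, and 0 to 482 with a library left out. Genes at an unadjusted p under 0.05 numbered 1700, and 974 with a filter at 5 FPKM, 3914 with sample weights, 166 with the ciliated-cell covariate and 866 to 2195 with a library left out. Members at that p numbered 5 (13.6% of all tested genes), 14 with sample weights (31.2%) and 0 with the covariate (1.32%). With a library left out they numbered 1 to 13. The 13 were without WT 2 (17.5% of all tested genes), and the count was 1 without WT 1 (14.7%) and without KO 2 (7.03%). Members with higher values numbered 8, and 13 after quantile normalization and 6 to 15 with a library left out. The median member stayed negative throughout, and leaving out single libraries put it between -0.312 and -0.011. Over the settings that keep all libraries, 257 member values kept their direction and side of the threshold, 5 passed it and 25 changed sign. The changes of sign were, with median-ratio scaling, Pfkm and Pdk2 (0.01 each). After quantile normalization they were Gpi1 (0.13), Tpi1 (0.05), Gapdh (0.18), Pfkfb2 (-0.05), Pfkfb3 (0.13), Pdk2 (0.13), Pdk3 (-0.03), Pgd (0.14) and Pygb (0.06). With sample weights they were Hk2 (0.10), Eno3 (0.04), Pfkfb2 (-0.02), Pdk2 (0.15) and Pygb (0.03), and after the length and GC correction Pkm (-0.06). With the ciliated-cell covariate they were Hk1 (-0.08), Hk2 (0.22), Aldoc (-0.19), Pkm (0.00), Pfkfb2 (-0.07), Pfkfb3 (0.05), Pdk2 (0.20) and Pygb (0.05). With a library left out the ranges of members that changed sign were Pfkfb4 -0.24 to 0.05, Pdk3 -0.05 to 0.11, Pkm -0.07 to 0.14, Ldhb -0.18 to 0.50, Pdk2 -0.18 to 0.14, Gpi1 -0.25 to 0.05, Pfkm -0.12 to 0.04, Tpi1 -0.53 to 0.03, Gapdh -0.33 to 0.11, Eno3 -0.33 to 0.08, Pgd -0.43 to 0.07 and Pfkfb3 -0.27 to 0.04. Isozyme shares that did so were Pfkm (-0.344 to 0.337 percentage points), Pfkfb3 (-0.293 to 7.64), Pfkfb4 (-0.17 to 0.343), Pdk1 (-3.74 to 0.00959), Pdk2 (-0.997 to 4.38) and Pdk3 (-0.636 to 0.987). The cause was not tested. In 15 members, 13 lower and 2 higher, no setting changed the sign. Whether the replicate numbers pair the libraries is not known. Same-numbered deviations correlated at 0.23, -0.20 and 0.22, which with 3 libraries per group cannot decide it. With the replicate block 1714 genes (13.7%) and 6 members had an unadjusted p under 0.05. Depth limits genes near 1 FPKM, such as Aldoc in WT 2 and WT 3.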

Other observations

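Glycolytic isozymes that are made in sperm stood apart by library and not by group. Gapdhs, the sperm form of glyceraldehyde phosphate dehydrogenase, had 3.65 FPKM in WT 1 and 3.46 FPKM in KO 2, against 0.508 FPKM in KO 1 and 0.078 FPKM in WT 3. WT 2 and KO 3 were listed at 0. Ldhc, the testis lactate dehydrogenase, had 5.03 FPKM in WT 1 and 5.34 FPKM in KO 2 against at most 0.551 FPKM elsewhere. Pgk2, the sperm phosphoglycerate kinase, had 1.96 and 1.77 FPKM in the same libraries. The protamine gene Prm1, which packs sperm DNA, had 39.2 FPKM in WT 1 and 33.3 FPKM in KO 2 and at most 3.4 FPKM in the other 4 libraries. Together the 10 sperm and spermatid markers, which include these 3 isozymes, summed to 151 FPKM in WT 1 and 121 FPKM in KO 2, against 0.533 to 16.4 FPKM in the others.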
